A study of Mus musculus with 4 samples.

Results

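Chromosome 7 carried 1594 of the 29838 initiation zones listed in set 1 and 1430 of the 26025 listed in set 2, that is, 3024 of 55863 zones in all. Its zones were taken as all entries of both zone lists that name chromosome 7. They were split at 25 Mb into a proximal part, next to the centromere, with 215 zones in set 1 and 190 in set 2, and a remainder with 1379 and 1240. The chromosome and its boundary were chosen by zone density, covered share and zone-free intervals in these same lists, so every contrast between the parts below is a description and none was tested. The samples were genomic DNA of E14tg2a mouse embryonic stem cells of 2 genotypes, with 2 replicates each. The parent line carries Tet-OsTIR1::Rosa26(bi) and mAID-RNaseh2a::puroR(bi), and the derived line carries Pole1-M630F(bi) in addition, so that both lines have the degron-tagged RNaseh2a. In all 4 samples, doxycycline was present throughout, first with auxinole (24 h) and afterwards with IAA (12 h). The lists give zones per set and hold no separate values for parent and mutant, and the use of the parent libraries in the zone calls was not given in the sources used here. Replicate 1 of each line carries the name set 1 and replicate 2 the name set 2, and no label names separate cultures, so differences between the sets may be technical.

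DNA replication in mammalian cells starts at many places that cluster in initiation zones, and the DNA between zones is copied by forks that travel in from either side. DNA polymerase ε synthesises the leading strand, and the Pole1-M630F mutant leaves more ribonucleotides in the strand it makes. RNase H2, of which RNaseh2a is the catalytic subunit, removes such ribonucleotides, so its depletion through the auxin-inducible degron keeps them in place. Alkali breaks the DNA at each of them, and a switch of the labelled strand marks a place where leading-strand synthesis starts to run in both directions. Mouse chromosome 7 is known for large clusters of olfactory receptor, vomeronasal receptor and zinc finger genes and for several imprinted domains. Genes at the zones were not analysed here, since the reference tables belong to a different mouse assembly, and no sequence is printed for the same reason.

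Over its whole length, chromosome 7 had a low share of DNA inside zones in both sets, and a low number of zones per Mb in set 1 but not in set 2. The span from its first to its last zone was 141.7 Mb. Set 1 placed 11.3 zones per Mb there, against 11.6 ± 0.295 (SD over the 18 other autosomes), and only 1 autosome had fewer. Set 2 placed 10.1 per Mb, against 10.1 ± 0.212, with 10 autosomes lower. Zones covered 42.7 Mb or 30.2% of the span in set 1, against 32.1% ± 0.809, and 44.5 Mb or 31.4% in set 2, against 32.9% ± 0.731. In both sets chromosome 14 was the single autosome with a lower share, at 29.8% and 30.9%. Both values of chromosome 7 lay more than 1 SD below the mean of the other autosomes. The rank is a description: 1 chromosome among 19 cannot give a two-sided rank p below 0.105.

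The median zone was of ordinary strength in both sets and rather narrow in set 2, and wide zones were few. In set 1 the median zone was 18 kb wide (18.8 kb ± 1.15 on the other autosomes), and in set 2 it was 21 kb wide (22.9 kb ± 1.28), with 1 of 18 autosomes lower. The upper quartile of width was 39 kb in set 1, against 42.5 kb ± 2.20, and at 50 kb in set 2, against 52.7 kb ± 1.90. Zones wider than 40 kb numbered 384, or 24.1%, in set 1 and 453, or 31.7%, in set 2. On the other autosomes these shares were 26.4% and 33.3%. Per Mb there were 2.71 such zones in set 1, fewer than on any other autosome (3.07 ± 0.137), and 3.20 in set 2 (3.36 ± 0.102), where 2 autosomes had fewer. Zones of a single 1 kb bin numbered 173, or 10.9%, and 139, or 9.72%, near the 11.5% and 10.3% of the other autosomes. The score of a zone is a number that the authors give, with no stated unit, so it is used here only within a set. The median score was 7.43 in set 1, against 7.24 ± 0.627 on the other autosomes, and 8.07 in set 2, against 8.63 ± 0.825. Ranked among the zones of all 19 autosomes, the median zone of chromosome 7 stood at percentile 50.5 in set 1 and 49.2 in set 2. Wide zones had high scores here as elsewhere, with a rank correlation across zones of 0.937 and 0.939 on chromosome 7 and of 0.946 and 0.952 on the other autosomes.

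The low covered share was most marked in the proximal part. In the 21.9 Mb from the first zone to 25 Mb, zones covered 23.8% of the DNA in set 1 and 25.3% in set 2. In the 119.8 Mb beyond, they covered 31.3% and 32.5%. The same stretch of the other autosomes was covered to 31.8% ± 2.12 in set 1 and 32.5% ± 2.16 in set 2, and none of the 18 lay as low as chromosome 7. The nearest was chromosome 14, at 25.7% and 27.9%. Zone density in the proximal part was 9.82 per Mb in set 1, against 11.5 in the remainder, and 8.67 in set 2, against 10.4. Both proximal densities were the lowest among the 19 autosomes, whose proximal parts otherwise had 11.4 ± 0.641 and 9.80 ± 0.425 zones per Mb. The covered share of the remainder stood on the low side of the other autosomes, with 3 of 18 lower in either set. Their means beyond 25 Mb were 32.1% ± 0.782 in set 1 and 33.0% ± 0.642 in set 2. Just beyond the boundary, from 25 to 35 Mb, zones covered 26.5% and 31.4%. None of the 18 was lower there in set 1, and 1 was lower in set 2. The ratio of proximal to remaining density was 0.853 in set 1 and 0.838 in set 2, and that of covered share 0.761 and 0.779. Both lists served to choose the part, so the likeness of the sets adds no support to this contrast. With the boundary at 20 Mb, the ratios were 0.973 for density and 0.896 for covered share, as means of both sets.

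**Figure D1:**
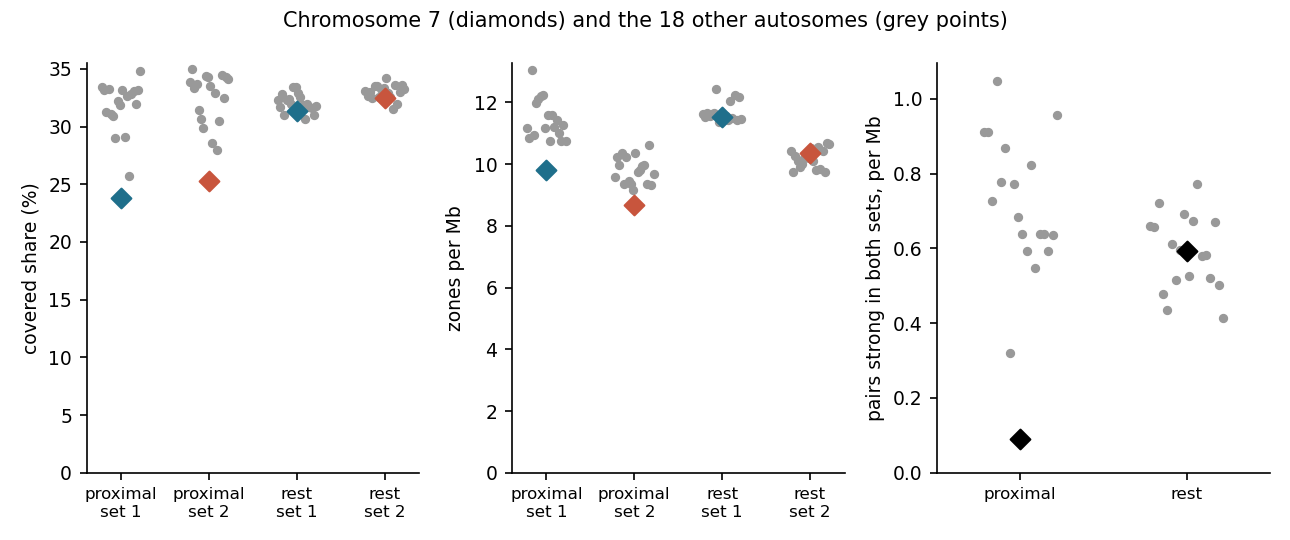
Covered share (%), zones per Mb, and pairs of overlapping zones that are both among the highest 10% of scores (per Mb) in the part of each autosome below 25 Mb (proximal) and in the rest. Diamonds are chromosome 7 and grey points the 18 other autosomes, spread sideways for clarity; the proximal diamonds lie below every grey point of their column, at 23.8% and 25.3% covered, while those of the rest lie among the grey points.

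Zones that did occur below 25 Mb were not uniformly small or weak. Their median width was 16 kb in set 1, against 18 kb in the remainder, and 21 kb in set 2, the same as in the remainder. Their median score was 7.12 against 7.44 in set 1 and 9.42 against 7.98 in set 2, so the sets disagreed in direction. The strong end of the range was thinner. Of the proximal zones, 11 in set 1 (5.12%) and 15 in set 2 (7.89%) were among the highest 10% of scores over the autosomes. The share on the other autosomes was 10.1% in set 1 and 10% in set 2 over their whole length. Below 25 Mb their means were 10.8% ± 1.65 and 12.2% ± 2.14, with none of the 18 lower than chromosome 7 in set 1 and 1 in set 2. Strong zones thus numbered 0.502 per Mb in set 1, against 1.23 ± 0.174 below 25 Mb on the other autosomes, and 0.685 per Mb in set 2, against 1.20 ± 0.196. In each set, none of the 18 other autosomes had fewer per Mb in this part. Zones over 40 kb also fell short of the remainder, at 2.10 per Mb against 2.82 in set 1 and 2.42 against 3.34 in set 2. The summed score per Mb was 0.761 times that of the remainder in set 1 and 0.776 times in set 2.

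The proximal part was not poor in zones throughout, as the profile in 5 Mb windows showed. It held a pair of thin stretches with a zone-rich one between them. From 5 to 10 Mb set 1 listed 44 zones and set 2 listed 35, covering 21.7% and 22.9%. From 20 to 25 Mb there were 30 and 23, covering 13.3% and 13.0%. At these positions the other autosomes had 57.2 ± 5.57 and 51.2 ± 5.98 zones from 5 to 10 Mb, and 57.1 ± 6.97 and 47.7 ± 5.11 from 20 to 25 Mb, and none had fewer than chromosome 7 in either set. From 10 to 20 Mb, by contrast, chromosome 7 had 124 and 111 zones, against 116 ± 10.7 and 97.6 ± 7.13. In set 2 that was more than on any other autosome, and in set 1 it exceeded 12 of 18. These zones were narrow in set 1, with a median of 13 kb against 18.6 kb ± 4.38 and 1 of 18 autosomes lower. In set 2 the median was 19 kb, within 1 SD of 23.5 kb ± 6.41, with 6 of 18 lower. The covered share from 10 to 20 Mb stayed at 28.7% and 31.0%, against 31.5% ± 4.02 and 32.2% ± 3.41. The 17 and 21 zones between the first zone and 5 Mb covered 31.4% and 34.2%. From 20 to 25 Mb the median width was 24 kb in both sets, but this value came mostly from zones beyond 23 Mb. There were 14 and 12 zones from 23 to 24 Mb, and 12 and 11 from 24 to 25 Mb. In set 1 the windows at 20 to 21 and 22 to 23 Mb held 2 zones each, with medians of 14 and 14.5 kb. Set 2 had none from 20 to 23 Mb.

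**Figure D2:**
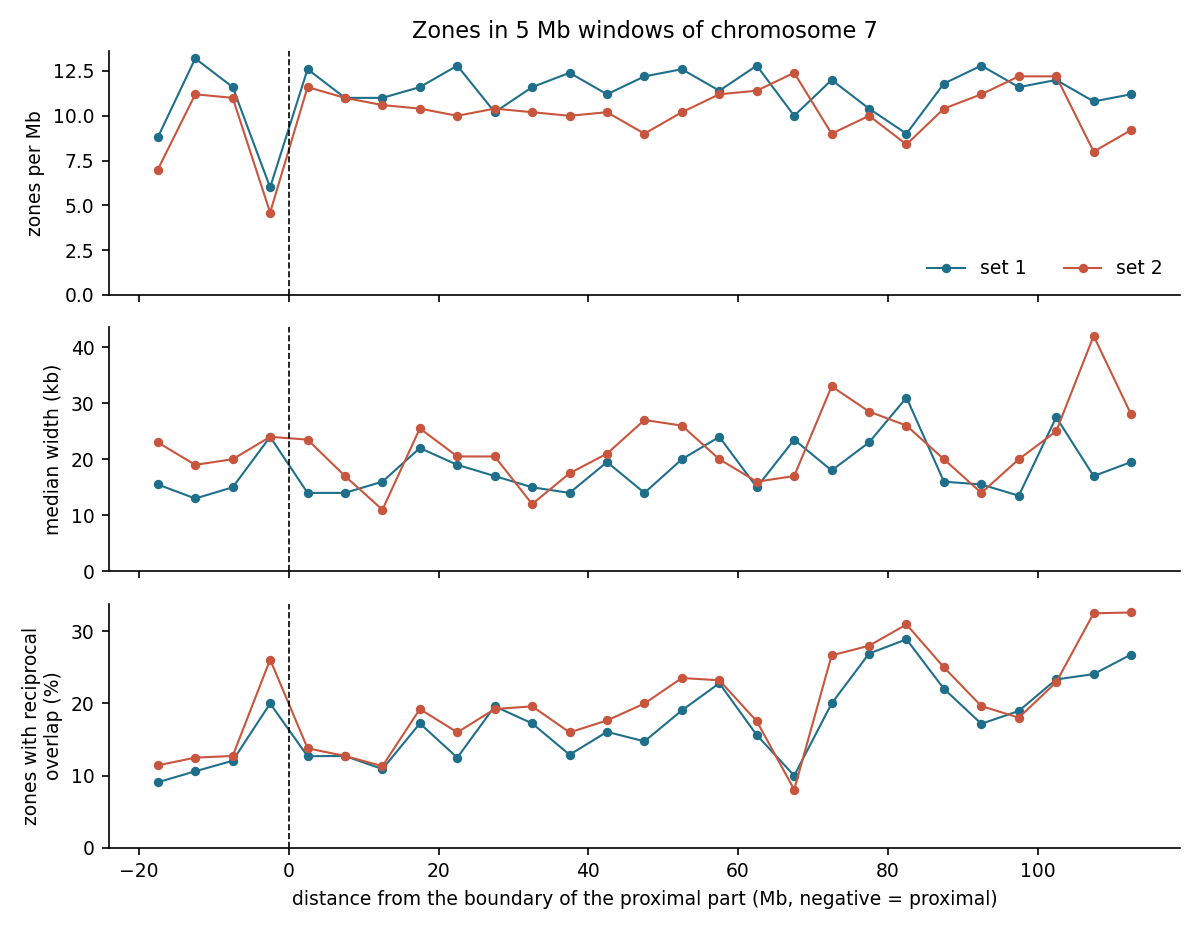
Zones per Mb, median zone width (kb) and share of zones (%) that overlap a zone of the other set by 50% or more of both, in full 5 Mb windows of chromosome 7, by the distance of the window's centre from the 25 Mb boundary. The lines are set 1 and set 2; density is lowest in the last window before the boundary (6 and 4.6 zones per Mb) and next lowest in the first window shown, while width has no dip there.

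Among all 437 windows of 5 Mb on the other autosomes, 1 had fewer zones in set 1 than chromosome 7 from 20 to 25 Mb, and none had fewer in set 2. The window from 5 to 10 Mb had more zones than 3 of them in set 1 and 1 in set 2. Next in order of density on chromosome 7 was the window from 105 to 110 Mb, with 45 and 42 zones, but these were wide, with medians of 31 and 26 kb, and covered 32.3% and 33.4%. Next in order of covered share was the window from 55 to 60 Mb, at 25.7% and 23.7%, where 58 and 51 zones had medians of only 15 and 12 kb. At the low end, density and covered share thus picked out different windows beyond the boundary. The densest windows were 10 to 15 Mb with 66 and 56 zones, 85 to 90 Mb with 64 and 57, 25 to 30 Mb with 63 and 58, and 125 to 130 Mb with 60 and 61, the last 3 being equal in their mean of 12.1 per Mb. The greatest covered share, as the mean of both sets, was from 125 to 130 Mb, at 35.4% in set 1 and 35.5% in set 2, followed by 135 to 140 Mb and 130 to 135 Mb. Each of these lay in the distal part, and no full window of the proximal part passed 32.5%.

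At a scale of 1 Mb the thin stretches held a few nearly empty windows, and from 5 to 10 Mb further windows of low cover. A 1 Mb window was called thinly covered when zones took up under 10% of it in both sets. Chromosome 7 had 5 such windows among 140, of which 4 were among the 21 proximal ones. On the other autosomes 0.448% of all 1 Mb windows and 1.32% of those below 25 Mb were thinly covered. The 4 proximal windows were 8 to 9 Mb and the 3 from 20 to 23 Mb, and the last was 59 to 60 Mb. The window from 21 to 22 Mb had no zone in either set. Those on either side had 2 zones each in set 1 and none in set 2. From 8 to 9 Mb there were 3 and 5 zones, covering 4.8% and 6%, and none of them met a zone of the other set. Cover was also low beside it, at 17.1% and 21.2% from 7 to 8 Mb and at 16.1% and 19.7% from 9 to 10 Mb. From 59 to 60 Mb there were 7 and 9 zones, covering 8.6% and 7.2%. The window from 32 to 33 Mb came close to the same limit, with 4 zones in each set and 7.2% and 11.1% covered. Only 2 windows of the other autosomes had no zone in set 1, and 3 in set 2.

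The proximal part also held the 1 Mb window with the highest covered share as the mean of both sets. From 6 to 7 Mb, zones covered 49.1% in set 1 and 42.8% in set 2, with 12 and 6 zones. It was followed by 109 to 110 Mb (44.5% and 44%) and 42 to 43 Mb (38.8% and 47.2%). Covered share thus ran from 0% to 49.1% in set 1 and to 42.8% in set 2 within the proximal part, with an SD over its 21 windows of 13.0 points in set 1 and 12.9 in set 2. Over the 119 windows of the remainder the SD was 6.81 and 6.87 points, and over the 2233 windows of the other autosomes 6.07 and 6.28. The median 1 Mb window of the proximal part was covered to 27.6% and 30.7%, against 32.4% and 33.1% in the remainder. The most zones in a single window were 18, seen in set 1 from 28 to 29 Mb and from 56 to 57 Mb and in set 2 from 30 to 31 Mb.

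**Figure D3:**
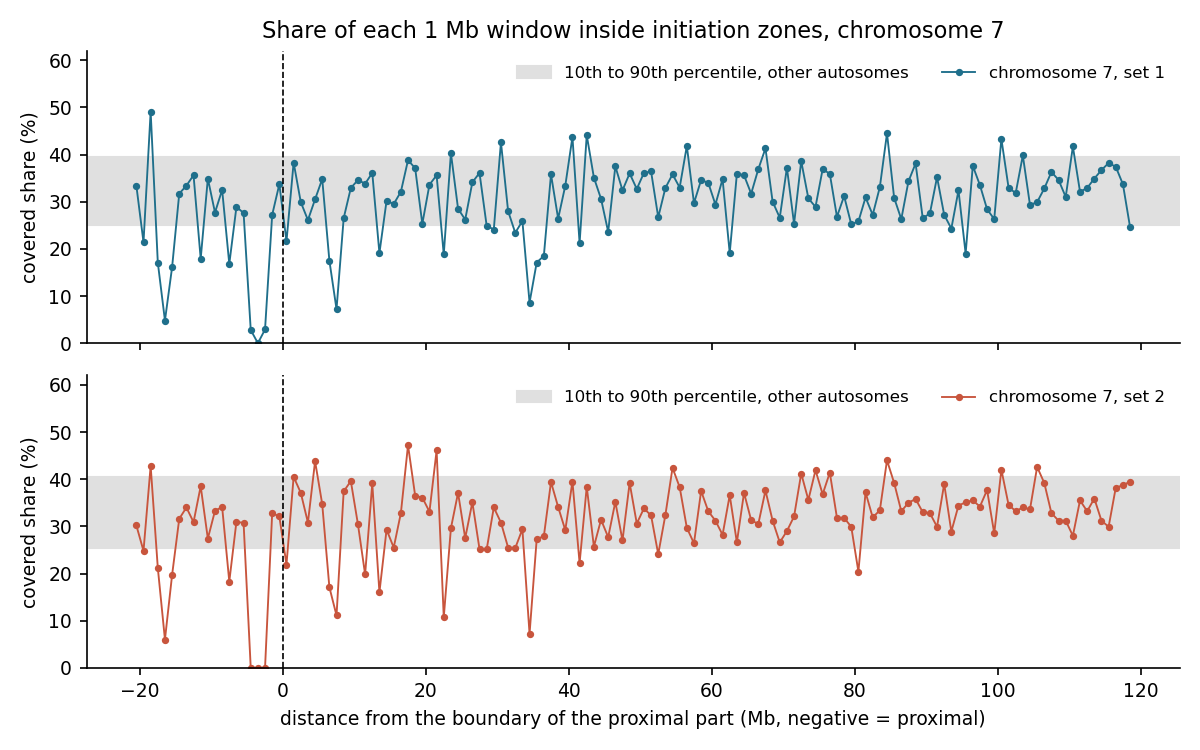
Covered share (%) of each full 1 Mb window of chromosome 7 in set 1 (top) and set 2 (bottom), by the distance of its centre from the 25 Mb boundary (dashed line). The grey band is the 10th to 90th percentile of the 1 Mb windows of the 18 other autosomes (25% to 39.5% in set 1); the 3 windows from 20 to 23 Mb lie at 2.9% or less in both sets.

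The emptiest stretch was made of 3 intervals with no zone in either set, and chromosome 7 had no other of 500 kb or more. They ran from 19808000 to 20515000 (708 kb), from 20846000 to 22482000 (1637 kb) and from 22524000 to 23034000 (511 kb), in GRCm39 positions of the first and last empty 1 kb bin. What parted them were 4 zones of set 1 alone. The first lay at 20516000 to 20531000 (16 kb, score 11.0003), the next at 20834000 to 20845000 (12 kb, score 14.8), and the last pair at 22483000 to 22510000 (28 kb, score 23.5) and at 22523000 (1 bin, score 2.38). None of the 4 was among the strongest, with percentiles of 57.3, 62.7, 71.9 and 33.4 within set 1. Set 2 had no zone at all between 19808000 and 23034000, a gap of 3227 kb. In set 2 this gap ended with a zone at 23035000 to 23074000 (40 kb, score 21.9), followed by a strong one at 23134000 to 23193000 (60 kb, score 96.9, percentile 94.04). Set 1 split the ground of that strong zone into zones of 36 kb (score 31.1) and 27 kb (score 16.0). On the near side, the last zones before the gap were at 19745000 to 19754000 in set 1 (10 kb, score 1.52) and at 19758000 to 19807000 in set 2 (50 kb, score 32.3).

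**Figure D4:**
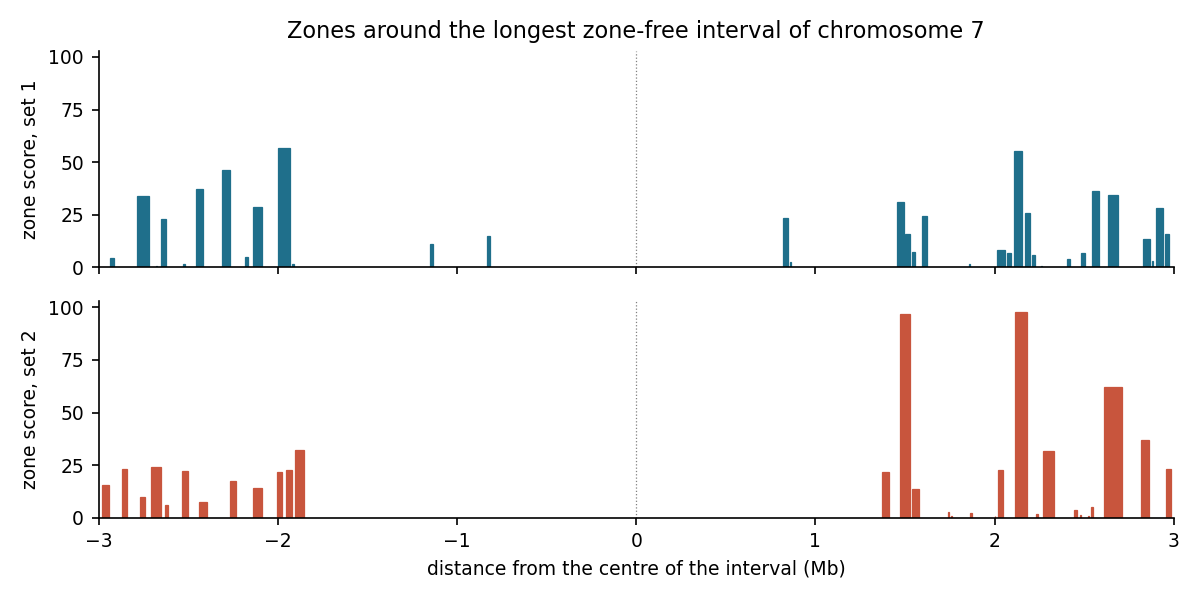
Zones within 3 Mb of the centre of the 1637 kb interval without a zone of either set, as bars from the first to the last bin of the zone whose height is the zone's score (no stated unit), set 1 above and set 2 below. Set 1 has 4 zones, all of score 23.5 or less, inside the stretch of 3227 kb that is empty in set 2.

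The 3 intervals added up to 2.86 Mb, or 13.0% of the proximal span. On the other autosomes such intervals took up 0.520% ± 1.70 of the part below 25 Mb, and 16 of 18 had none there. Assembly gaps and mappability were not analysed here. With the 3 intervals left out of the span, the proximal part had 11.3 zones per Mb in set 1 and 9.97 in set 2, against 11.5 ± 0.669 and 9.86 ± 0.462 on the other autosomes treated alike. Its covered share was then 27.4% and 29.1%, against 32.0% ± 1.82 and 32.7% ± 1.93, below all 18 others in set 1 and above 1 of them in set 2. Without these intervals the proximal density thus lay within 1 SD of the other autosomes in both sets, while the covered share lay more than 1 SD below them. With a minimum of 300 kb, 4 shorter intervals joined these 3 below 25 Mb, and the 7 together took up 19.3% of that span, against 1.07% ± 2.01 on the other autosomes. In the remainder there were 3, or 1.05%, with 14 of 18 autosomes lower, and the longest was 491 kb. With all intervals of 300 kb or more left out of both parts, zone density below 25 Mb was 1.036 times that of the remainder as the mean of both sets, and covered share 0.944 times.

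The boundary at 25 Mb separated neighbouring zones of similar width. The last zone below it lay at 24950000 to 25002000 in set 1 (53 kb, score 72.8) and at 24945000 to 24996000 in set 2 (52 kb, score 14.3). The first above it lay at 25058000 to 25104000 in set 1 (47 kb, score 38.3) and at 25056000 to 25104000 in set 2 (49 kb, score 38.7). Both pairs overlapped almost fully in position, and only the score of the first differed widely between the sets by rank, at percentile 93.3 in set 1 and 58.7 in set 2. The thin stretch therefore ended near 23 Mb, short of the boundary.

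Both sets rarely agreed on which proximal zones were strong. Of 141 pairs of overlapping zones below 25 Mb, 2 (1.42%) had both zones among the highest 10% of scores of their set. In the remainder this held for 71 of 906 pairs (7.84%), and over the whole chromosome for 73 of 1047 (6.97%; 8.53% on the other autosomes). On the other autosomes it held for 10.4% of pairs below 25 Mb and 8.15% beyond. Per Mb, chromosome 7 had 0.0913 such pairs in the proximal part, against 0.727 ± 0.176 on the other autosomes, where the lowest was 0.320 on chromosome 8. Its remainder had 0.593 per Mb, against 0.589 ± 0.101. The proximal part held only 11 zones of this strength in set 1 and 15 in set 2, of which 2 in each set formed these pairs. Counts per pair and per Mb therefore also reflect how few strong zones there were. With the highest 20% of scores in place of 10%, a rule added after seeing the data, the proximal part had 15 pairs, against 32.9 ± 5.42 on the other autosomes, again fewer than on any of the 18. The shortfall was therefore less deep under the wider rule.

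The 2 proximal pairs strong in both sets lay on either side of the thin window at 8 to 9 Mb. The first joined 6120000 to 6188000 in set 1 (69 kb, score 91.6) with 6031000 to 6185000 in set 2 (155 kb, score 135.2, the widest zone of set 2 below 25 Mb). The second joined 13733000 to 13792000 in set 1 (60 kb, score 70.2) with 13725000 to 13870000 in set 2 (146 kb, score 170.6). In either case the zone of set 2 was over 80 kb wider, and the midpoints lay 46 and 35 kb apart. One more pair just missed the limit: set 2 had a zone at 7093000 to 7218000 (126 kb, score 93.8), and its partner in set 1, with a score of 59.0, stood at percentile 89.95. The other strong zones of either set met weaker ones. The strongest proximal zone of set 1, at 5022000 to 5155000 (134 kb, score 140.7, percentile 99.5), met at best a zone of set 2 at percentile 77.3, at 5041000 to 5088000 (48 kb, score 39.2). The strongest of set 2, at 17598000 to 17674000 (77 kb, score 191.0, percentile 99.8), met a zone of set 1 at percentile 87.8, at 17609000 to 17646000 (38 kb, score 51.9). One strong zone of set 1, at 4071000 to 4132000 (62 kb, score 67.2), met no zone of set 2.

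**Figure D5:**
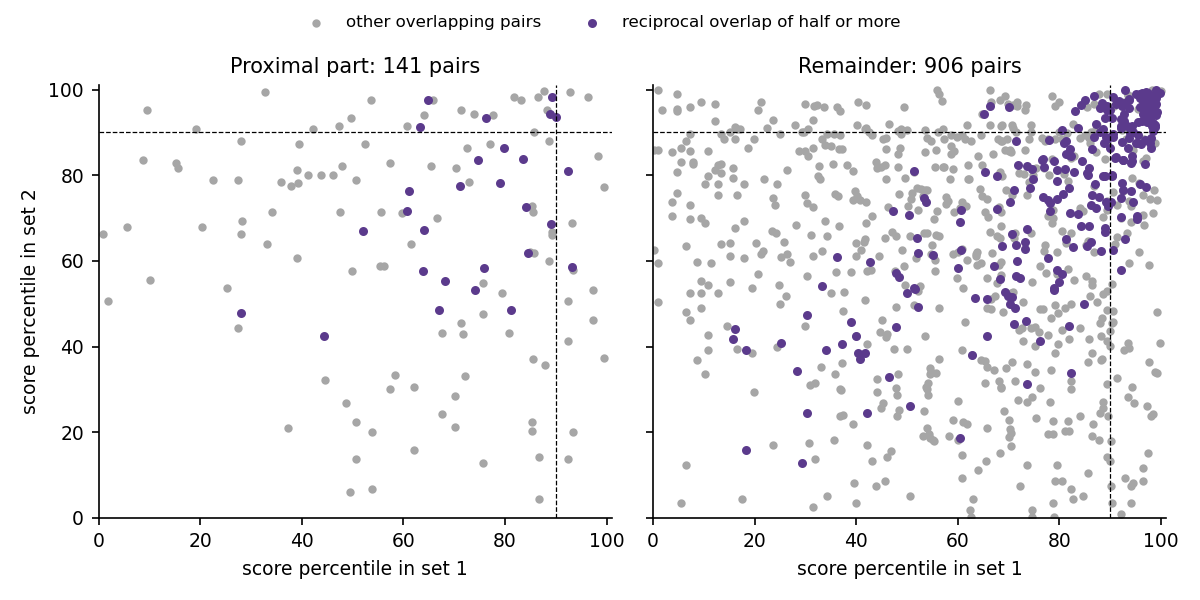
Score percentile (rank within the set over all autosomes) of overlapping zones in set 1 and set 2, for 141 pairs below 25 Mb of chromosome 7 (left) and 906 beyond (right). Purple points overlap by 50% or more of both zones, and the dashed lines mark percentile 90; the upper right corner beyond both lines holds 2 pairs on the left and 71 on the right.

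Agreement in position depended on how overlap was counted. By any overlap of at least 1 bin, 123 of 215 proximal zones of set 1 (57.2%) met set 2, against 797 of 1379 (57.8%) in the remainder. In set 2 the counts were 113 of 190 (59.5%) and 745 of 1240 (60.1%). The other autosomes had 56.2% in set 1 and 60.3% in set 2 over their whole length, and 55.3% and 59.3% below 25 Mb, so that neither part of chromosome 7 stood apart. By reciprocal overlap, where the shared bins make up 50% or more of both zones, 28 proximal zones of each set were matched, or 13.0% of set 1 and 14.7% of set 2. In the remainder 253 were matched, or 18.3% and 20.4%, and on the other autosomes 18.1% and 20.8%. Below 25 Mb the other autosomes had 18.6% ± 2.44 and 21.6% ± 2.32 as their means, and chromosome 7 was lower than all 18 in both sets. The low share was not particular to the proximal part. From 25 to 35 Mb chromosome 7 was also lower than all 18, at 12.7% and 13.3%, against 19.2% ± 2.90 and 21.5% ± 2.94. The 5 Mb window with the fewest zones, from 20 to 25 Mb, had 20.0% and 26.1%, with 13 and 14 of 18 autosomes lower. Its matched zones all lay beyond 23 Mb, and the few zones of set 1 from 20 to 23 Mb met none of set 2. By midpoints within 10 kb, the proximal shares were 24.7% and 28.9%, near the 25% and 28.8% of the other autosomes. Chromosome 7 as a whole had 920 zones of set 1 (57.7%) and 858 of set 2 (60.0%) met by any overlap.

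The shortfall in reciprocal overlap was seen in wide proximal zones. Of zones over 40 kb below 25 Mb, 14 of 46 in set 1 (30.4%) and 19 of 53 in set 2 (35.8%) were matched reciprocally. The other autosomes had 52.8% ± 5.87 and 49.9% ± 6.30 in the same part, with none lower in set 1 and 1 lower in set 2. Wide zones of the remainder of chromosome 7 reached 51.2% and 45.5%. By any overlap, 91.3% and 88.7% of wide proximal zones were met, against 91.7% and 93.2% of wide zones on the other autosomes. Zones of 11 to 40 kb differed less, at 14.1% and 12.9% below 25 Mb against 11.3% and 13.5% on the other autosomes. Narrow zones of up to 10 kb seldom matched reciprocally anywhere, with 1.30% and 0% in the proximal part.

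Bins covered by both sets were a smaller share of the covered DNA in the proximal part, but exceeded the product of the covered shares by more. They added up to 2.39 Mb below 25 Mb and 19.1 Mb beyond. As a share of bins covered by either set, this was 28.5% in the proximal part, against 34.2% ± 2.04 there on the other autosomes and 33.4% in the remainder. The shared bins were 1.81 times the product of both covered shares in the proximal part and 1.57 times in the remainder. On the other autosomes the proximal ratio was 1.59 ± 0.0921, with 17 of 18 lower. DNA empty in both sets raises this ratio by construction, and zone-free intervals of 500 kb or more took up 13.0% of the proximal span. The ratio was not computed without them, so it is no measure of better agreement there. A track that gives each 1 kb bin the score of its zone correlated between the sets at 0.262 in the proximal part and 0.477 in the remainder. No other autosome was as low below 25 Mb (0.486 ± 0.0592). These bins share zones and are not independent, so the correlations describe the lists only. From 10 to 20 Mb, where zones were narrow in set 1 and dense in set 2, the track correlation was 0.200. That was lower than at this position on any other autosome (0.497 ± 0.0727). The thin window from 20 to 25 Mb had 0.475, near the 0.461 ± 0.132 of the other autosomes. All its zones that met the other set lay beyond 23 Mb. From 5 to 10 Mb, where zones were also few, the track correlation was 0.327, against 0.479 ± 0.115, with 1 of 18 autosomes lower.

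The scores of matched zones also correlated less by rank between the sets in the proximal part. Across its 28 reciprocal pairs the rank correlation of scores was 0.391, against 0.761 across the 253 of the remainder, and 0.721 ± 0.0699 below 25 Mb on the other autosomes. The midpoints of these proximal pairs lay a median of 5.25 kb apart, closer than the 7.5 kb of the remainder. Across all 141 overlapping proximal pairs the correlation was -0.0311, against 0.178 in the remainder. A rank correlation also depends on the range of scores, and strong zones were few below 25 Mb. The part this played was not tested. Most zones that were met had 1 partner: 107 of the 123 met proximal zones of set 1 and 88 of 113 in set 2. Zones met by several others numbered 16 in set 1, as 14 met 2 partners and 2 met more. Unmet zones were small: below 25 Mb their median widths were 8 and 6 kb, against 30 and 34 kb for those met, and in the remainder 9 and 8 kb, against 31 and 39 kb. Their median proximal scores were 2.501 and 2.67, against 16.0 and 17.3 for those met.

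Of the 10 highest scores of each set on chromosome 7, 1 in set 1 and 2 in set 2 lay below 25 Mb. The 10 pairs with the best mean rank over both sets lay in the remainder. The part below 25 Mb held 215 of the 1594 zones in set 1, 190 of 1430 in set 2 and 141 of 1047 overlapping pairs. Counts out of 10 are too small to set the parts apart. The highest score of set 1 belonged to 52750000 to 52898000 (149 kb, score 201.5). In set 2 a zone at 52739000 to 52821000 (83 kb, score 183.1) ranked number 5 on the chromosome and overlapped it by 72 kb, which made this the pair with the best mean rank. The next pair was 71914000 to 72019000 in set 1 (106 kb, score 127.1) and 71927000 to 72021000 in set 2 (95 kb, score 193.2), with midpoints 7.5 kb apart. It was followed by 36271000 to 36429000 in set 1 (159 kb, score 168.5), the widest zone of that set on the chromosome, with 36320000 to 36440000 in set 2 (121 kb, score 155.3). The next pair, at 73178000 to 73319000 and 73179000 to 73346000, started within 1 kb in both sets and had scores of 125.2 and 154.6. All 10 pairs with the best mean rank lay between 36 and 111 Mb, and 8 of them overlapped reciprocally. The best proximal pair had a mean rank of 39, against 24.5 for the last of these 10.

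The top zone of set 2 was also among the highest 10% of scores in set 1, at a lower rank. It spanned 62050000 to 62230000 (181 kb) with a score of 270.2, the highest and the widest of set 2 on this chromosome. In set 1, 3 zones lay on that ground, and the best of them, at 62056000 to 62145000 (90 kb), had a score of 110.4 and ranked 26 on the chromosome. Number 2 of set 2, at 33772000 to 33911000 (140 kb, score 212.7), met at best a zone of set 1 that ranked 102. In the other direction, number 3 of set 1 was the proximal zone at 5022000, and number 5, at 92291000 to 92420000 (130 kb, score 129.0), met 3 zones of set 2, none ranking above 348. Of the 10 highest zones of each set, 4 pairs were in the lists of both sets. All 20 had at least 1 partner by any overlap, as did nearly all zones among the highest 10% of scores. Of those, 98.6% in set 1 and 100% in set 2 were met on chromosome 7. On the other autosomes the shares were 98.9% ± 0.710 and 99.4% ± 0.667.

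Agreement varied along the remainder as well. Between 35 and 40 Mb, 10.9% of zones of set 1 and 11.3% of set 2 were matched reciprocally, and between 90 and 95 Mb 10% and 8.06%. From 5 to 10 Mb, the full proximal window with the lowest shares, they were 9.09% and 11.4%. They were highest between 105 and 110 Mb, at 28.9% and 31.0%, and between 135 and 140 Mb, at 26.8% and 32.6%. Windows of 5 Mb beyond the boundary had covered shares from 23.8% to 35.7% in set 1 and from 23.7% to 36.0% in set 2. Over the 119 windows of 1 Mb beyond the boundary, the rank correlation of covered share between the sets was 0.406, and that of the number of zones 0.274. The other autosomes had 0.394 and 0.215 over 2233 windows. Below 25 Mb the values for chromosome 7 were 0.712 and 0.511 over 21 windows. That range includes the window from 21 to 22 Mb, empty in both sets, and its nearly empty neighbours. Neighbouring windows are not independent, so these values carry no p.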

How the data were processed

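Per the submitters' processing notes, the authors used Bowtie2 and the GRCm39 build. Gel fragments of 300 to 2000 nt were sequenced, per the labels' protocols. The zone caller and the Bowtie2 version were not given in the sources used here. The authors deposited 1 list of zones per set, with first and last position on a 1 kb grid and a score of no stated unit. Read depth is unknown from these lists, so no counting interval was given. Each zone was taken to include the 1 kb bin at its last position. Zones were placed by midpoint. The span was bounded by the outermost zones of both sets, and windows of 1 and 5 Mb began at whole multiples. Means ± SD are over the 18 other autosomes. Functions for overlap, cover and gaps were tested on simulated lists (4500 overlap decisions, 0 differing from a direct search). Members and lists were chosen with earlier results of these data known. Regions named are the extremes of score, width, density, covered share and mean rank, plus zones next to gaps and to the boundary, and strong proximal zones picked after their values were seen. No test of significance was run. Alternatives changed the boundary, the reading of the last position, the score minimum, the span, the overlap rule and the average. Python 3.11.15, NumPy 2.4.6, pandas 2.3.3, SciPy 1.17.1 and Matplotlib 3.10.9 were used.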

Additional observations from a re-analysis of the deposited data

How the results depend on the processing

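Values are means of both sets and none was tested. Zone density below 25 Mb was 0.845 times that of the remainder, 0.973 with the boundary at 20 Mb, 0.898 at 30 Mb, 0.865 for scores at or above the median, 0.972 without zone-free intervals of 500 kb, 1.036 (reversed) without those of 300 kb and 0.952 without the window from 20 to 25 Mb. The last 2 settings were added after seeing the data. Covered share, 0.770 times, kept its direction in all 7 settings run, at 0.896 with the boundary at 20 Mb, 0.813 at 30 Mb, 0.885 and 0.944 without intervals of 500 and 300 kb and 0.875 without 20 to 25 Mb. The ratio of median scores, 1.07, turned to 0.9987 with the boundary at 30 Mb and to 0.909 with means. The difference in zones met, -0.597 points, turned to 0.951 and 0.63 with the boundary at 20 and 30 Mb and to 0.761 without 20 to 25 Mb. It was -0.890 with plain interval ends, -3.52 for the stronger zones, -5.50 (-5.495) by reciprocal overlap and -1.04 by midpoints. Against the other autosomes, density (0.984) turned to 1.001 and covered share (0.947) moved to 0.963 without intervals of 500 kb. Zones met (0.527 points) turned to -0.257 with plain ends, -1.70 for the stronger zones and -0.804 by reciprocal overlap. Pairs strong in both sets, 0.126 times the other autosomes, came to 0.456 with the highest 20%. For these moves the cause was not tested, except that leaving out intervals without zones raises density and cover by construction. When 1 set was dropped, values ran from 0.838 to 0.853 (density), 0.761 to 0.779 (cover), 0.889 to 1.0 (width), 0.958 to 1.181 (score) and -0.607 to -0.586 (zones met), and against the other autosomes from 0.968 to 0.999, 0.941 to 0.953 and -0.276 to 1.33.

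No paired analysis was possible because neither list separates the parent line from the mutant.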
